A study of Mus musculus with 67 samples.

Results

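Dynamic promoter elements are the accessible elements at transcription start sites (TSSs) whose accessibility differed most between the cell types and days of this series. They were chosen from the values themselves. An element was taken if its annotation began with promoter-TSS and if its mean accessibility in 13 groups, each a sorted cell type on a given day, spanned at least 2 units on the variance-stabilized log2 scale (VST) from the lowest to the highest group. Of 8271 promoter elements with values, 1234 met this rule, or 14.9%, among 111638 elements in all. Of the 103367 elements that were not annotated as promoter-TSS, 57.5% spanned as much, which made 54.4% of all elements. Every comparison between days or cell types given here was used in choosing the members, so those comparisons are described and not tested.

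The series holds 67 samples of chromatin accessibility from cells differentiated from the mouse embryonic stem (ES) cell line HM1. By the authors' method, CaTS-ATAC, cells were fixed, treated with the Tn5 transposase, stained for intracellular transcription factors and sorted before sequencing. NMPs, the progenitors of spinal cord and trunk mesoderm, were collected at day 3 from 0 nM SAG, with 3 samples. From day 3 all cultures received retinoic acid and 1 of 4 concentrations of SAG, an agonist of the sonic hedgehog pathway, and neural progenitors (NPs) were sorted at days 4, 5 and 6. The NPs were p0-1 from 0 and 10 nM SAG, p2 from 10 and 100 nM, and pMN and p3 from 100 and 500 nM, in dorsal to ventral order. SAG concentrations were pooled by the rule, which left 3 to 6 samples in each of the 13 groups. All samples came from the same unmodified ES line, and the study describes replicates as independent differentiations, so that the spread between samples covers differentiations of this line only. The same replicate numbers recur at both SAG concentrations of an NP group, so its samples need not all be separate differentiations. The p3 and pMN samples of day 6 carry only the numbers 2 and 3, at 100 and 500 nM each. ES cells had been grown on fibroblast feeders that were removed before differentiation. Each sample is a bulk library of sorted cells, and fewer open cells cannot be told apart from less access in each cell.

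Promoters hold the sites where transcription starts, and in mammals they come in broadly different kinds. Promoters of widely used genes mostly lie in CpG islands, stretches rich in CG dinucleotides, and are kept free of nucleosomes in most cell types. Promoters of genes used in few tissues are often poor in CG and open together with the gene, and many genes carry alternative promoters that start different transcripts.

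The sequences of 6 members are shown because they represent the kind of promoter found in the set, with 1 member for each of the 6 classes described below. Each is the member with the largest span of its class whose 250 bases upstream of a RefSeq start lie inside the element and outside GENCODE exons. They were taken from the RefSeq promoter sequences of GRCm38.p6, the build of the deposited coordinates (mm10), and are printed in the direction of transcription with each CG dinucleotide in capitals. Of the 1234 members, 869 overlapped an entry of that table.
Fut1, highest in NMPs (chr7:45617356-45617605, plus strand): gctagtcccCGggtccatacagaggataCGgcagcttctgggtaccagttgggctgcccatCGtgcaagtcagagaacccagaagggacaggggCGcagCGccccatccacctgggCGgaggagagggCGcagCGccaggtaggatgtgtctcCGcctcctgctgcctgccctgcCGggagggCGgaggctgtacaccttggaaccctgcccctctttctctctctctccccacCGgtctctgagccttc
C030018K13Rik, highest at day 4 (chr5:64476758-64477007, plus strand): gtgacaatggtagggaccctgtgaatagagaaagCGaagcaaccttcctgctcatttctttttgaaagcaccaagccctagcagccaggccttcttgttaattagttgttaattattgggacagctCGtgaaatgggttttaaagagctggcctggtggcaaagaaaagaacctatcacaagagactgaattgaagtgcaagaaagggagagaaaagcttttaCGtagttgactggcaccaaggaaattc
Cyp2c39, highest in p0-1 (chr19:39510572-39510821, plus strand): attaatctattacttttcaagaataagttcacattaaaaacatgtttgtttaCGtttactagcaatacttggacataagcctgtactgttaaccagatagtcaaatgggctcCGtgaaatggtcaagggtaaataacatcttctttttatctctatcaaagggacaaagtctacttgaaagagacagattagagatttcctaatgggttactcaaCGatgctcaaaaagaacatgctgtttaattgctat
Nhlh1, highest in p2 (chr1:172057597-172057846, minus strand): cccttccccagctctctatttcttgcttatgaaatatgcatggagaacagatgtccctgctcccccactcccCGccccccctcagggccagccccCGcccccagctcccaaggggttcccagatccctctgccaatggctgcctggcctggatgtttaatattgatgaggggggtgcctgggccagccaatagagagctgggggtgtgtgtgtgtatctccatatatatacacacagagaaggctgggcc
Gm10636, highest in pMN (chr3:146378945-146379194, minus strand): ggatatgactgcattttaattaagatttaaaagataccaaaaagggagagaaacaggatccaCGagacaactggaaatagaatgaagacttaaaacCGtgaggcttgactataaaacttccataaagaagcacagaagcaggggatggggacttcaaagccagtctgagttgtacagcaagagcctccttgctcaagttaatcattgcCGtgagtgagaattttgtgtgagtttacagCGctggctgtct
Sox6, highest in p3 (chr7:115824711-115824960, minus strand): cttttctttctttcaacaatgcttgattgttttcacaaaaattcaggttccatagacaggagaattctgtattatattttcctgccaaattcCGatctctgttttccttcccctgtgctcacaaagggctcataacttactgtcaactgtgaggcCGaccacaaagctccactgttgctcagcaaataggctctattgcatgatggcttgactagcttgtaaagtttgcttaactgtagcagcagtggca
The Fut1 window had 12 CG dinucleotides. The windows of C030018K13Rik and Cyp2c39 had 3 each, that of Gm10636 had 4, and those of Nhlh1 and Sox6 had 2 each. Fut1 encodes a fucosyltransferase, Cyp2c39 a cytochrome P450, Nhlh1 a helix-loop-helix factor of newborn neurons, and Sox6 an SRY-box factor.

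Depth was between 9298160 and 29985325 reads in elements per sample, with a median of 20254011. Promoter elements took 31.0% to 40.2% of these reads. Over the members, 58 of the 67 samples correlated best with the mean of their own group and 9 with that of another. Of those 9, 7 were closest to another cell type of the same day and 2 to the same cell type a day earlier. The lowest correlation with the own group, 0.938, was that of p2 at day 6 from 100 nM SAG, replicate 3, which was closest to p2 at day 5. The next lowest was 0.943 and the median 0.979. Without this sample the rule gave 1238 members, of which 1231 were shared. Markers could be read only where a promoter element had a value. The promoter of T, a defining gene of NMPs, was a member and was highest in NMPs, and that of Nkx2-9, a gene of p3, was a member and was highest in p3 at day 5. At day 6 the Nkx2-9 mean was 11.03 VST units in pMN and 10.90 in p3, so it did not set p3 apart from pMN on that day. The promoters of Sox2 and Nkx6-1 spanned 0.41 and 0.94 VST units, and the element nearest the Pax6 TSS was no member either. Olig2, Nkx2-2, Dbx1 and Irx3 had no promoter element in the table used here, so the labels of p0-1, p2, pMN and p3 were not checked at these promoters.

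Members were placed in 6 classes by the group with the highest mean. The largest class, with 867 members or 70.3%, was highest in NMPs at day 3. A further 70 were highest in some cell type at day 4. At days 5 and 6, 53 were highest in p0-1, 32 in p2, 82 in pMN and 130 in p3. The smaller classes depended on the scale, and the day 4 class had 107 elements on log2 counts and 123 with samples centered on the promoter median, while the p2 class had 51 on log2 counts. Promoters that were most open before neural induction therefore outnumbered all the others. The group with the lowest mean was more scattered, with pMN at day 6 for 312 members, p3 at day 6 for 281 and NMPs for 221.

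**Figure D1:**
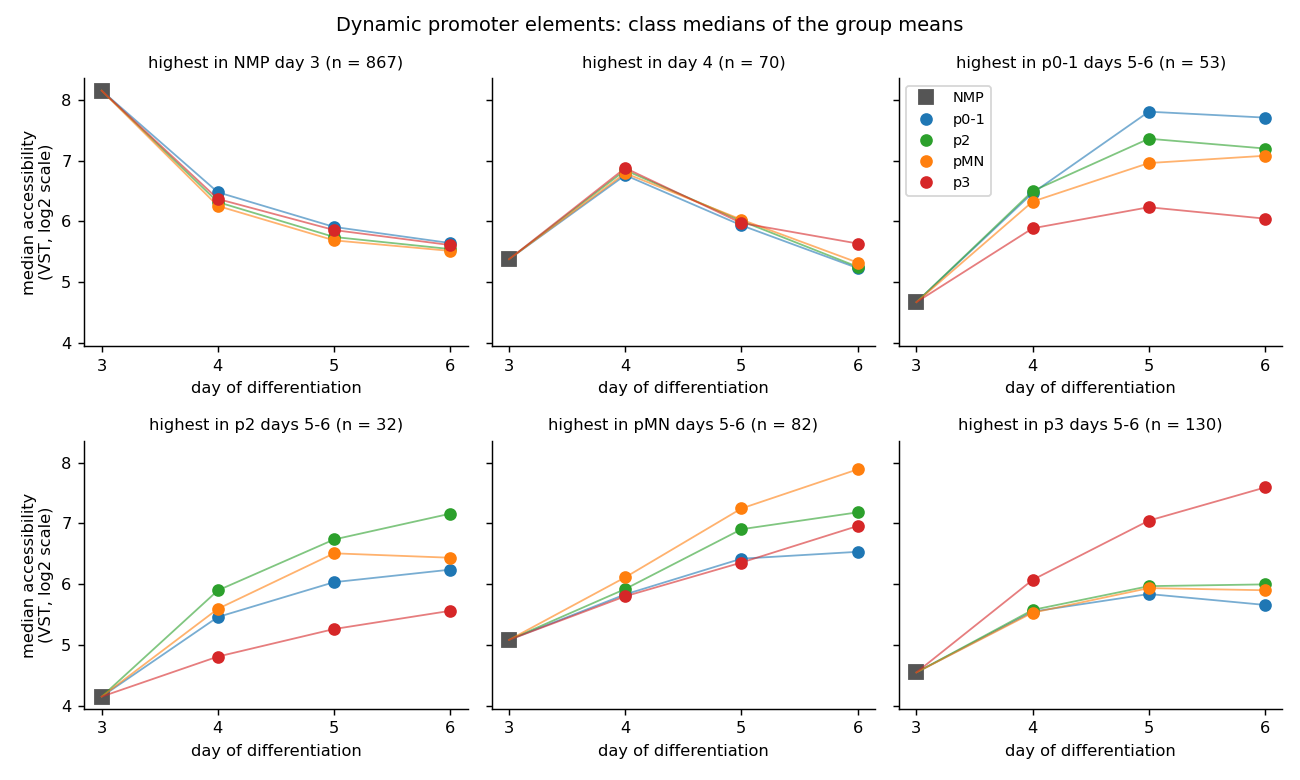
Median accessibility of the 6 classes of dynamic promoter elements, on the VST log2 scale, against day of differentiation, with a point for each sorted cell type and n giving the number of elements in the class. The class highest in NMPs drops from 8.15 at day 3 to between 5.52 and 5.64 at day 6 in all 4 NP types, whereas the class highest in p3 reaches 7.59 in p3 and stays between 5.66 and 6.00 in the others.

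The class highest in NMPs was already much less accessible at day 4. Its median was 8.15 VST units in NMPs, between 6.26 and 6.48 in the 4 NP types at day 4, and between 5.52 and 5.64 at day 6. In 837 of the 867 elements, or 96.5%, the mean of the 4 NP types at day 4 was lower than in NMPs by at least 1 unit. In 815, or 94.0%, more than 50% of the difference between NMPs and the mean of the 4 types at day 6 was already present at day 4. At day 6, 848 were lower by at least 1 unit in every NP type, and only 7 were within 1 unit of the NMP mean in p3 and in no other type.

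Wnt8a, a Wnt ligand of the primitive streak and tail bud, had the largest span of the class, 6.06 VST units. Its promoter had 1302, 1548 and 1795 normalized counts in the 3 NMP samples. At day 4 the p3 samples had 92.2, 98.2, 98.6, 109 and 123, and the p0-1 samples had a lowest value of 90.4, a median of 129.5 and a highest of 194. At day 6 the p3 samples had 7.77, 10.2, 15.0 and 16.5. The NMP samples thus lay above every NP sample by a wide margin, and the NP samples of day 4 lay above those of day 6.

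Pou5f1, which encodes the pluripotency factor OCT4, followed the same course. Its element had 1108, 1532 and 1898 counts in NMPs. In p3 it had 71.9, 76.5, 93.3, 133 and 149 at day 4, and 24.3, 42.7, 42.7 and 56.1 at day 6. The promoter of T, or Brachyury, had 1056, 1188 and 1280 counts in NMPs. In pMN at day 6 it had 88.3, 91.4, 104 and 112, and in p0-1 at day 6 it had 99.7, 139, 155, 171 and 180.1. These T samples of day 6 all had more counts than Pou5f1 had in any p3 sample of that day.

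The promoter of Sp5, a target of Wnt signaling, was the most accessible of these, with 3490, 4355 and 4479 counts in NMPs. It still had 573, 599, 609 and 610.5 counts in pMN at day 6, a span of 2.78 VST units over the 13 groups. Rgs12, a regulator of G-protein signaling, had a member element with 739, 981 and 1091 counts in NMPs and 1.65, 10.7, 13.9 and 17.3 in p3 at day 6. The Rgs12 element was already between 14.5 and 24.3 counts in the 5 p3 samples of day 4. The Fut1 element of the sequence shown above was as low, with 7.77, 11.2, 14.8 and 15.0 counts in p3 at day 6.

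Genes of the earlier state were described by lists of known genes. Of the 15 promoter elements of NMP and caudal epiblast genes, 6 were members (40.0%, beside 14.9% of all promoter elements), those of Wnt8a, Wnt5b, T, Fgf17, Sp5 and Mixl1, and all were highest in NMPs. The median span over the 15 elements was 1.50 VST units, against 0.70 over all promoter elements. Of 4 promoter elements of pluripotency genes, 3 were members, those of Pou5f1, Nodal and Lefty1, and all were highest in NMPs. Nodal and Lefty1 encode a TGF-beta ligand and its inhibitor. Of 7 promoter elements of germ-line genes, 4 were members (57.1%), those of Sycp3, Tex19.1, Tdrd1 and Stk31, genes of meiosis and of transposon silencing. These 4 were highest in NMPs, as were 70.3% of all members. The 7 elements had a median of 29.3 counts. Of all promoter elements under 30 counts 61.4% were members, so the germ-line share was close to that found at such counts. Sycp3, of the synaptonemal complex, had 377, 491 and 535 counts in NMPs and 16.5, 17.3, 20.4 and 25.4 in p3 at day 6.

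The class also held genes that belong to later or other tissues. Of 17 promoter elements of late progenitor and glial genes, 8 were members, and 7 of them were highest in NMPs, including those of Aldh1l1, Apoe, Cspg4 and Tnc. Of 7 elements of mesoderm and fibroblast genes, those of Col1a2 and Acta2 were members and highest in NMPs. Col1a2, a collagen of fibroblasts, had 370.5, 447 and 482 counts in NMPs and 30.1, 32.6, 42.9 and 54.3 in p3 at day 6. Twist1, the other fibroblast marker with a promoter element, spanned 1.70 VST units and was also highest in NMPs. Feeder cells or remaining pluripotent cells among the NMPs were not tested as a source of these values.

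The values of NMPs were also shifted as a whole at promoters. The difference between NMPs and the mean of the 12 NP groups had a median of 0.31 VST units over all promoter elements, of 0.20 over the 5360 that spanned less than 1, and of -0.26 over all elements, whereas it was 1.83 over the members. With each sample centered on the median of all promoter elements, 1057 elements met the rule, 994 of them the same, and 59.1% were highest in NMPs. With each sample centered on the median of all elements, 1479 met it and 77.1% were highest in NMPs.

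Most of the 367 members that were not highest in NMPs were more accessible in NPs. NMPs were the lowest group for 221 of them, or 60.2%, and 161, or 43.9%, were higher than NMPs by at least 1 unit in every NP type at day 6. In the class highest at day 4, the median was 5.38 in NMPs, between 6.76 and 6.88 at day 4 and between 5.23 and 5.64 at day 6, so that these elements were most accessible in between.

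Mobp is a gene of myelinating cells. Its promoter had 31.0, 41.2 and 73.2 counts in NMPs and 1084, 1351, 1414, 1544 and 1604 in p3 at day 4. At day 6 it had 917, 958, 1023 and 1035 in pMN but 149.5, 224, 275, 307 and 347 in p0-1. The pMN samples of day 6 lay above those of p0-1 with no overlap. Stra6, the membrane receptor for retinol-binding protein, had 198, 385 and 451 counts in NMPs. In p0-1 at day 4 it had a lowest value of 629, a median of 905 and a highest of 1057, and in pMN at day 6 it had 64.5, 75.2, 103 and 119. Zbtb20, a zinc-finger factor, had at most 4.85 counts in NMPs, between 30.3 and 175 in p3 at day 4 and between 4.71 and 12.8 in p0-1 at day 6.

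**Figure D2:**
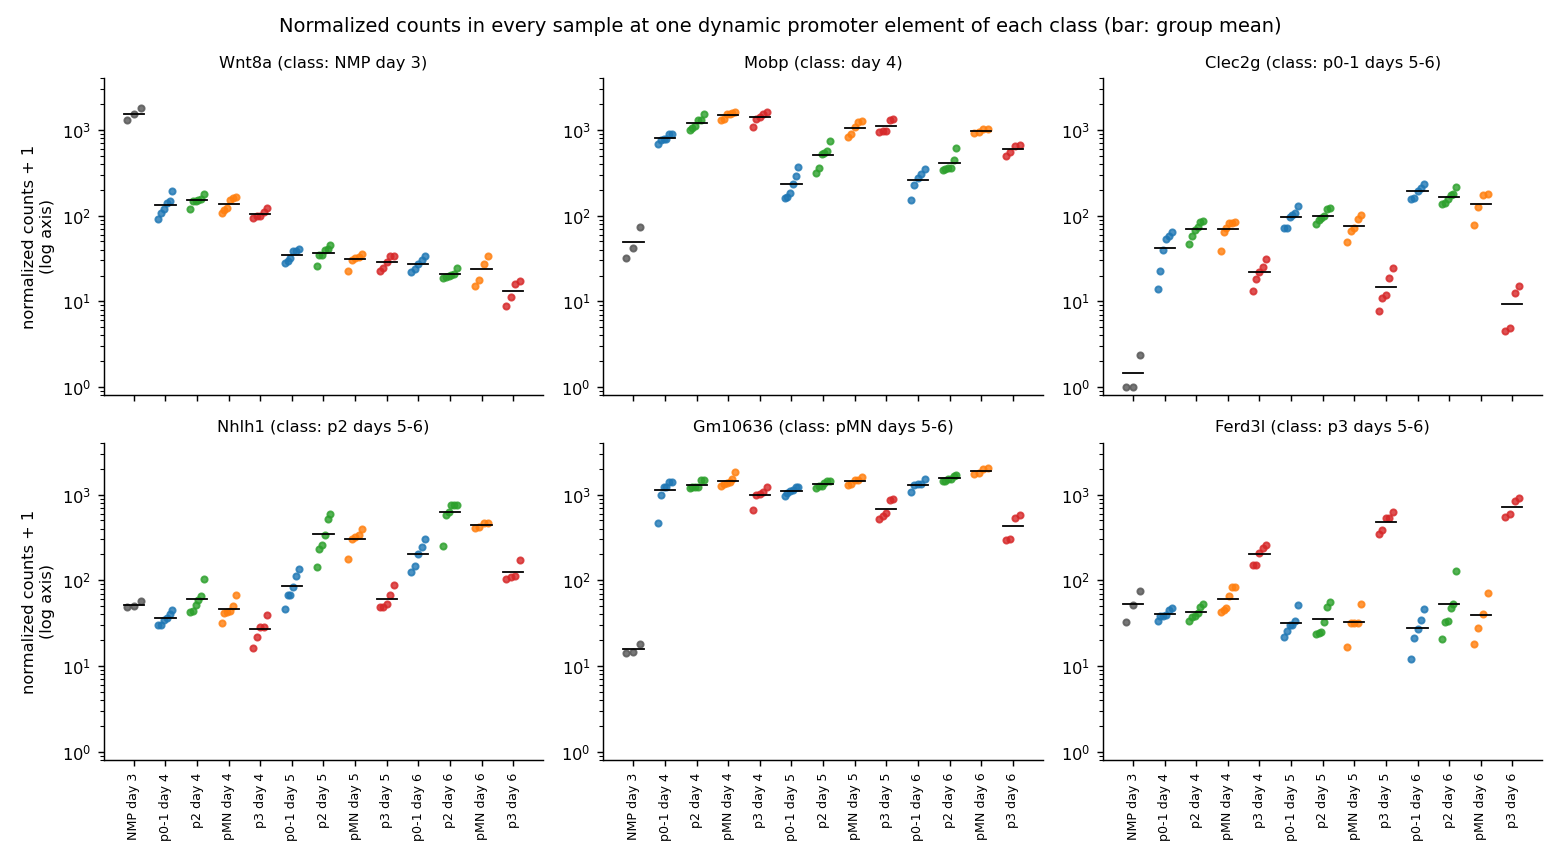
Normalized counts plus 1, on a log axis, in every sample at a dynamic promoter element of each class, with groups ordered by day along the horizontal axis, a point for each sample and a bar at the group mean. Wnt8a is above 1000 in all 3 NMP samples and below 200 in every NP sample, and Ferd3l is above 500 in all 4 p3 samples of day 6 and below 130 in the other NP samples of that day.

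Members highest in p0-1 at days 5 and 6 were also open in p2 and pMN and less so in p3. Their median reached 7.81 VST units in p0-1 at day 5 and 7.71 at day 6, with 7.20 in p2, 7.08 in pMN and 6.05 in p3 at day 6, from 4.67 in NMPs. Cntn6, a neural cell adhesion molecule, had 0, 2.42 and 10.8 counts in NMPs. At day 6 it had 245, 286, 306, 559.6 and 623 counts in p0-1, 199, 203, 342 and 491 in pMN, and 28.9, 29.7, 71.9 and 88.5 in p3. Samples of p0-1 and pMN overlapped at Cntn6, whereas those of p3 lay below both.

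Pax6, a homeodomain factor of dorsal and intermediate progenitors, had a member element whose center lay 5608 bp from the TSS that the annotation measured from. At day 6 it had 1469, 1524, 1698, 1849 and 1941 counts in p0-1, 775, 963, 1004 and 1322 in pMN, and 211, 215, 256 and 345 in p3. The element at the main TSS, which was no member, had 3567, 3707, 3864, 3904 and 4406 counts in p0-1 and 1484, 1593, 1740 and 1966 in p3. Both were in the same order, with a span of 2.68 VST units at the member and less than 2 at the other. A further promoter element of Pax6, with a mean of 461 counts, was also a member. It spanned 2.08 units and was highest in NMPs, not in p0-1. Mir10b, a microRNA gene of the Hoxd cluster, was a member highest in p0-1. Its mean was 6.20 VST units in NMPs and 5.79 to 6.17 at day 4. At day 6 it was 9.69 in p0-1, 8.95 in p2, 8.70 in pMN and 7.42 in p3.

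The smallest class, of 32 members, was highest in p2. Its median at day 6 was 7.16 VST units in p2, 6.44 in pMN, 6.24 in p0-1 and 5.56 in p3. Nhlh1 had a lowest value of 249, a median of 684 and a highest of 764 counts in p2 at day 6, and 407, 422, 461 and 461 in pMN. It had 125, 146, 199, 243 and 299 in p0-1 and 102, 107, 112 and 171 in p3. The lowest p2 value came from replicate 3 at 100 nM SAG, the sample that was closest to day 5. Without it the Nhlh1 span was 4.26 rather than 4.02 VST units, and the spans of the other leading members of the class, Ndst4, A830009L08Rik, Rfx6 and A330015K06Rik, were 5.43, 4.10, 3.94 and 3.95 rather than 5.32, 3.96, 3.94 and 3.81. Ndst4, a heparan sulfate sulfotransferase, had 5.40, 6.46 and 7.27 counts in NMPs. At day 6 it had between 443 and 832 in p2, between 627 and 683 in pMN and between 80.8 and 109 in p3, so that p2 and pMN overlapped and p3 lay apart.

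Members highest in pMN had a median of 7.89 VST units in pMN at day 6, with 7.18 in p2, 6.96 in p3 and 6.53 in p0-1. Gm10636, annotated as a long noncoding RNA gene, had the largest span of all members, 6.20 units. It had 13.3, 13.5 and 17.2 counts in NMPs and between 469 and 1857 in all samples of p0-1, p2, pMN and p3 at day 4. The pMN samples of day 6 had 1739, 1797, 2011 and 2068, and those of p3 were lower, with 296, 306, 530.0 and 582. Sox2ot, a noncoding gene that overlaps Sox2, had 18.9, 22.6 and 23.0 counts in NMPs, and 1172, 1192, 1281 and 1329 in pMN and 598, 747, 855 and 1217 in p3 at day 6. The neighboring promoter of Sox2 itself spanned only 0.41 units. Mir206, a microRNA known from skeletal muscle, had 6.46, 9.44 and 17.0 counts in NMPs and 650.4, 682, 695 and 697 in pMN at day 6.

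In the same class, Elavl4, an RNA-binding protein of neurons, had 135, 141 and 175 counts in NMPs. At day 6 it had 332, 393, 551, 562 and 646 in p0-1 and 1636, 1639, 1707 and 1721 in pMN, with p3 in between at 955, 1078, 1202 and 1342. The 3 cell types did not overlap there. Cyp26b1, an enzyme that degrades retinoic acid, had 27.9, 40.5 and 40.9 counts in NMPs, 678, 679, 735 and 765 in pMN at day 6 and 304, 360.1, 380.0 and 526 in p3.

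Within the members, p3 was the NP type that most often stood apart from the other 3. The members highest in p3 had a median there of 6.07 VST units at day 4, 7.05 at day 5 and 7.59 at day 6, while in the other types it was between 5.66 and 6.00 at day 6. Of the 130, 15 were above the other 3 types by at least 1 unit at day 4 and 79 at day 6. Over all 1234 members, p3 was above the other 3 types by at least 1 unit at day 6 in 94 (7.62%) and below them in 43 (3.48%). The same was true of p0-1 in 3 and 9, of pMN in 8 and 0, and of p2 in 2 and 0. The types p0-1, p2 and pMN were within 1 unit of each other in 1124 members, or 91.1%, and all 4 types in 910, or 73.7%. Among the 59486 other elements that spanned at least 2, all 4 types were within 1 unit in 41.0%, p3 was above the other 3 by at least 1 unit in 15.5%, and 25.1% were highest in NMPs.

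Ferd3l, a helix-loop-helix factor of the floor plate, had 31.2, 50.9 and 74.2 counts in NMPs. In p3 it had 149.8, 151, 205, 234 and 260.1 at day 4, 344, 387, 528, 539 and 622 at day 5 and 545, 585, 836 and 921 at day 6. On the last of these days it had 11.0, 20.0, 25.6, 32.9 and 44.6 in p0-1 and 17.0, 27.1, 39.4 and 70.1 in pMN. At Ferd3l, the p3 samples were above every sample of the other types at each of the 3 days. Acvr1, a receptor of BMP signaling, had a member element with 60.6, 60.7, 122, 134 and 174 counts in p3 at day 4 and 588, 604, 815 and 825 at day 6. That element had between 12.6 and 95.8 in the pMN samples of day 6, and between 22.8 and 183 in those of p2.

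Foxa2, the forkhead factor of notochord, floor plate and endoderm, was open both in NMPs and in p3. Its element had 1266, 1532 and 1685 counts in NMPs. In p3 it had 1115, 1174, 1189, 1411 and 1601 at day 4 and 1240, 1268, 1927 and 2215 at day 6. In the other types it was lower with time, and at day 6 it had 232, 235, 256, 289.6 and 294 counts in p0-1 and 221, 249, 290.1 and 348 in pMN. Nkx2-9 spanned 2.02 units and was open in pMN as well as in p3, with 1786, 2113, 2159 and 2305 counts in pMN and 1619, 1874, 2026 and 2137 in p3 at day 6, where the samples of these types overlapped. In p0-1 it had 515, 529.8, 651, 743 and 794.

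Sox6 was more accessible in all NP types than in NMPs, with the highest mean in p3. Its element had 10.9, 12.1 and 16.2 counts in NMPs, and at day 6 it had 1114, 1227, 1484 and 1755 in p3, 629, 798, 957, 993 and 1202 in p0-1, and 499, 554, 558 and 584 in pMN. The samples of p3 and p0-1 overlapped. Prr5l, a partner of mTOR complexes, had the largest span of the class, 6.15 units, with 8.09, 11.8 and 14.5 counts in NMPs and 1417, 1492, 1695 and 1750 in p3 at day 6. Since pMN had 1265, 1312, 1637 and 1655 at Prr5l on that day, its place in the class rested on a small difference. Hoxa2 was likewise counted in this class with 2723, 3142, 3307 and 3939 counts in p3, although p0-1 had 2632, 2866, 2955, 3186 and 3320, and the main difference was from NMPs, at 529, 569 and 617.

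In other lists of known genes, between 0% and 50.0% of the promoter elements were members, beside 14.9% of all promoter elements. Of 14 promoter elements of ventral patterning factors, 4 were members (28.6%), 2 of Pax6, 1 of Foxa2 and 1 of Nkx2-9. Of 9 elements of floor plate genes, those of Ferd3l and Foxa2 were members, both highest in p3. Of 15 elements of proneural and neuronal genes 6 were members (40.0%), of Nhlh1, Elavl4, St18, Lhx5, Slc32a1 and Map2, spread over 4 classes. Of 13 elements of retinoic acid pathway genes 5 were members (38.5%), 2 of Stra6 and 1 each of Cyp26b1, Rarg and Aldh1a1. Of 10 elements of Hox genes 4 were members (40.0%), with Hoxd4, Hoxd11 and Hoxc9 highest in NMPs. Of 5 elements of Hedgehog pathway genes and targets 1 was a member, Scube2, which encodes a protein that helps release the ligand. It had 267, 317, 325 and 331 counts in p3 and 781, 813, 1357, 1448 and 1486 in p0-1 at day 6. None of 10 elements of the Notch pathway and none of 9 of housekeeping genes were members, and their median spans were 0.93 and 0.43 units. These 2 lists had medians of 1821 and 1873 counts, and of all promoter elements above 1000 counts only 0.459% were members. The shares of the other lists in this paragraph are not set beside elements of similar counts. Of cilium genes 2 of 10 elements were members, of cadherins 2 of 8, of endoderm genes 2 of 4 and of neural crest genes 1 of 6.

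Dynamic promoter elements had low accessibility. Their mean over all samples had a median of 66.8 normalized counts, against 639 for all promoter elements, and 467 of them, or 37.8%, were above 100. Of promoter elements with under 30 counts, 61.4% were members, and of those with 30 to 100 counts 57.7%. The share was 30.7% from 100 to 300 counts, 2.98% from 300 to 1000 and 0.459% above. Elements not annotated as promoter-TSS did not show the same steep decline. Of these, 65.0% spanned at least 2 from 100 to 300 counts, 39.8% from 300 to 1000 and 18.9% above. A span of means is also larger where samples vary more, and the median SD within groups was 0.28 VST units for members and 0.18 for all promoter elements. The samples of the highest and the lowest group did not overlap in any member. They also did not overlap in 94% of all promoter elements and in 97.4% of all elements.

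**Figure D3:**
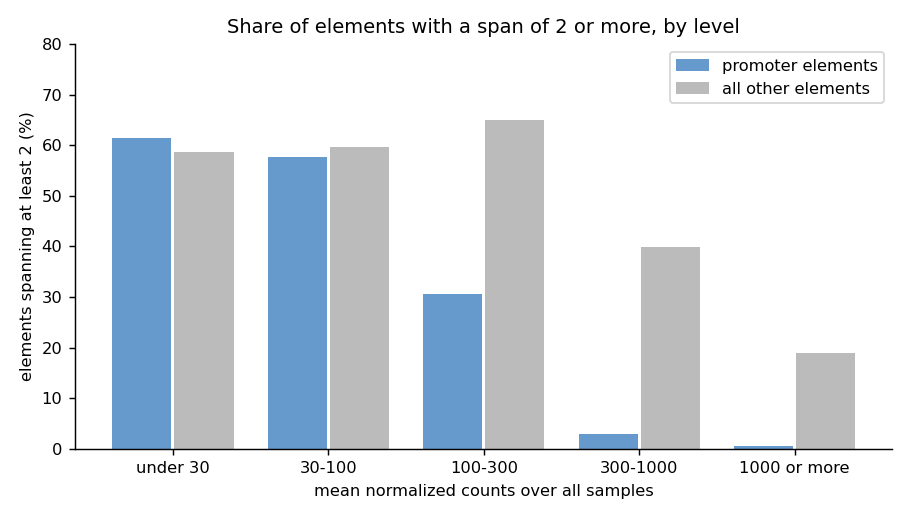
Share of elements with a span of at least 2 VST units, in percent, by mean normalized counts over all samples, for promoter elements and for all other elements. Both kinds are near 60% below 100 counts, and above 1000 counts promoter elements are at 0.459% and other elements at 18.9%.

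The threshold fell in a continuous range of spans. Just inside it were the promoters of Cplx1, Gprin3 and Zfp52, with spans of 2.0007, 2.0013 and 2.0034 units. Just outside were those of Gabrb1, Dll3 and Sh3bgr, with 1.9991, 1.9981 and 1.9954. All 6 were highest in NMPs.

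Most members were poor in CG dinucleotides, a property of the sequence that the rule did not use. In the 500 bp around the center of the element, the ratio of observed to expected CG had a median of 0.34 in members and 0.73 in all promoter elements. With CpG-poor defined as a ratio below 0.6, 1027 members were CpG-poor, or 83.2%, against 33.5% of all promoter elements and 15.1% of those spanning less than 1. Elements with low counts are more often CpG-poor. Among elements with a mean of 30 to 300 counts, 80.2% of 796 members and 57.1% of 1133 other promoter elements were CpG-poor. The share was 77.5% in the class highest in NMPs, 100% in that highest at day 4, and 94.3%, 93.8%, 95.1% and 97.7% in those highest in p0-1, p2, pMN and p3. Promoters highest in NMPs thus had the lowest share of CpG-poor elements of the 6 classes, and those of T, Tdrd1 and Lhx5 had ratios of 0.79, 0.85 and 0.85. These shares are descriptions, and no test was run on them.

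**Figure D4:**
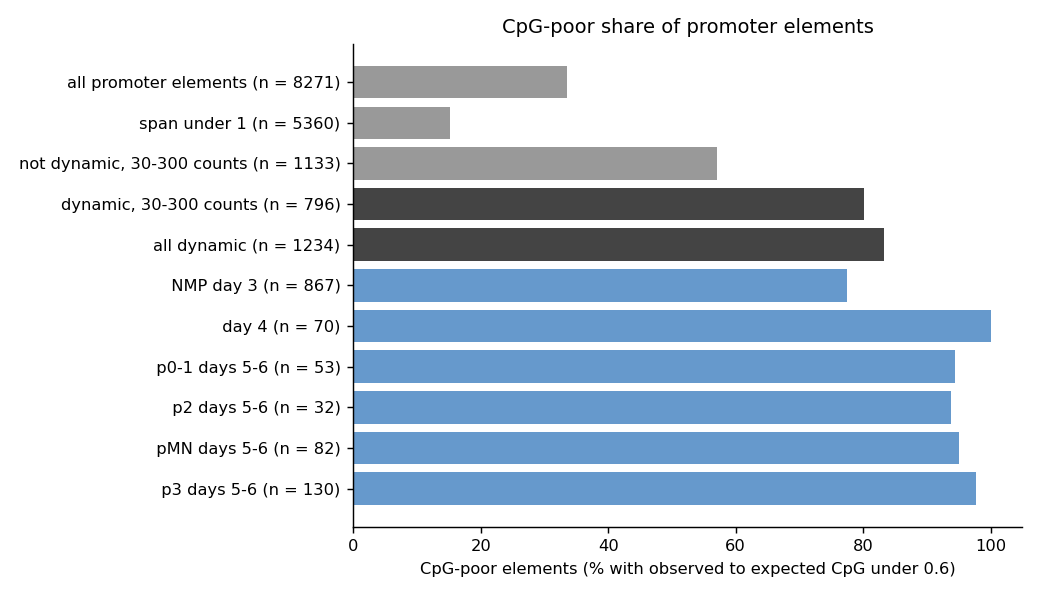
Share of CpG-poor promoter elements, in percent, for all promoter elements, for those spanning less than 1 VST unit, for elements of similar counts that are and are not dynamic, and for all members and each class (n, number of elements). All 6 classes lie between 77.5% and 100%, above the 33.5% of all promoter elements.

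The genes of members were described by their annotation. Of 1203 members whose gene matched the GENCODE annotation, 82.1% were at protein-coding genes, against 92.1% of 8093 promoter elements. MicroRNA genes had 46 members (3.73%), against 1.29% of promoter elements. Of the members, 94.9% lay within 1000 bp of a GENCODE TSS and 1083, or 87.8%, covered one. Elements are annotated by their center, and 9244 elements outside the promoter-TSS class also covered a TSS, of which 2182, or 23.6%, spanned at least 2. These are not among the members. The members belonged to 1212 genes, 21 of which had 2 or more. Within 100 kb of another member lay 271. Such a run was that of the chemokine genes Cxcl5, Cxcl3, Cxcl15, Cxcl1 and Cxcl2 at chr5:90757678-90904305, where 4 were highest in NMPs and Cxcl15 was highest in p3, at 6.87 VST units at day 6 with 3.55 in p0-1.

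Several genes had both a dynamic and a steady promoter element, from 1.9 to 396 kb apart. There were 50 members, at 49 genes, whose gene had another promoter element spanning less than 1 VST unit. The dynamic element had a lower CG ratio than the other in 44 of the 50 and fewer mean counts in 48. All members and all promoter elements spanning less than 1 differed in the same direction, whether or not they shared a gene. The medians were 66.8 and 946 counts, and 83.2% and 15.1% were CpG-poor. At Elmo2, an adaptor of engulfment and cell migration, the pair lay 9.54 kb apart, and the upstream sequences are shown because they differ in CG content while both belong to the same gene. They were taken and marked as above.
Elmo2, dynamic element (chr2:165316352-165316601, minus strand): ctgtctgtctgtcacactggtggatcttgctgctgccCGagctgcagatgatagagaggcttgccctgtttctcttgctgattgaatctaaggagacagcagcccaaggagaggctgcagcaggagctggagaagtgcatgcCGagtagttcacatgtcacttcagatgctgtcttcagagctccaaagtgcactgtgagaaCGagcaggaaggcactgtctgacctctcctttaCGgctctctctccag
Elmo2, steady element (chr2:165326480-165326729, minus strand): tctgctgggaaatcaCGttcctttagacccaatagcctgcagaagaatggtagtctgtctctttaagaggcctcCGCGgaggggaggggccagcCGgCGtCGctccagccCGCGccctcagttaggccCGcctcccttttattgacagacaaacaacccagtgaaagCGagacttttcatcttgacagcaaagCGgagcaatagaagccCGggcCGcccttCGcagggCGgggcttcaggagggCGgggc
The dynamic window had 4 CG dinucleotides at an observed to expected ratio of 0.22, and the steady window 16 at 0.71. The dynamic Elmo2 element had 59.3, 80.8 and 81.2 counts in NMPs and 1820, 1872, 2034 and 2070 in p3 at day 6. The steady element had 1206, 1350 and 1353 in NMPs and 1180, 1215, 1254 and 1314 in p3 at day 6. In p3 at day 6 the dynamic element was thus above the steady one, with no overlap between the samples. It was also high in the other NP types at day 6, with means of 10.41 VST units in p0-1, 10.20 in p2 and 10.64 in pMN beside 10.94 in p3, where the steady element had 10.39, 10.31, 10.36 and 10.29.

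At Rgs12, the dynamic element lay 49.5 kb from the other promoter element, which spanned 0.58 units and had 819, 849 and 961 counts in NMPs and 1160, 1176, 1190 and 1197 in p3 at day 6. In NMPs the dynamic element of Rgs12 was at the level of the steady one, and in NPs it was nearly closed. At Acvr1 the elements lay 4.78 kb apart, and the steady one, with 1024, 1091, 1277 and 1293 counts in p3 at day 6, was above every sample of the dynamic one in that group. Fmn1, a formin, and Sbno2 had dynamic elements that were highest in NMPs, 113 and 27.1 kb from steady ones. The spans were 4.14 against 0.45 units at Fmn1 and 3.89 against 0.45 at Sbno2.

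**Figure D5:**
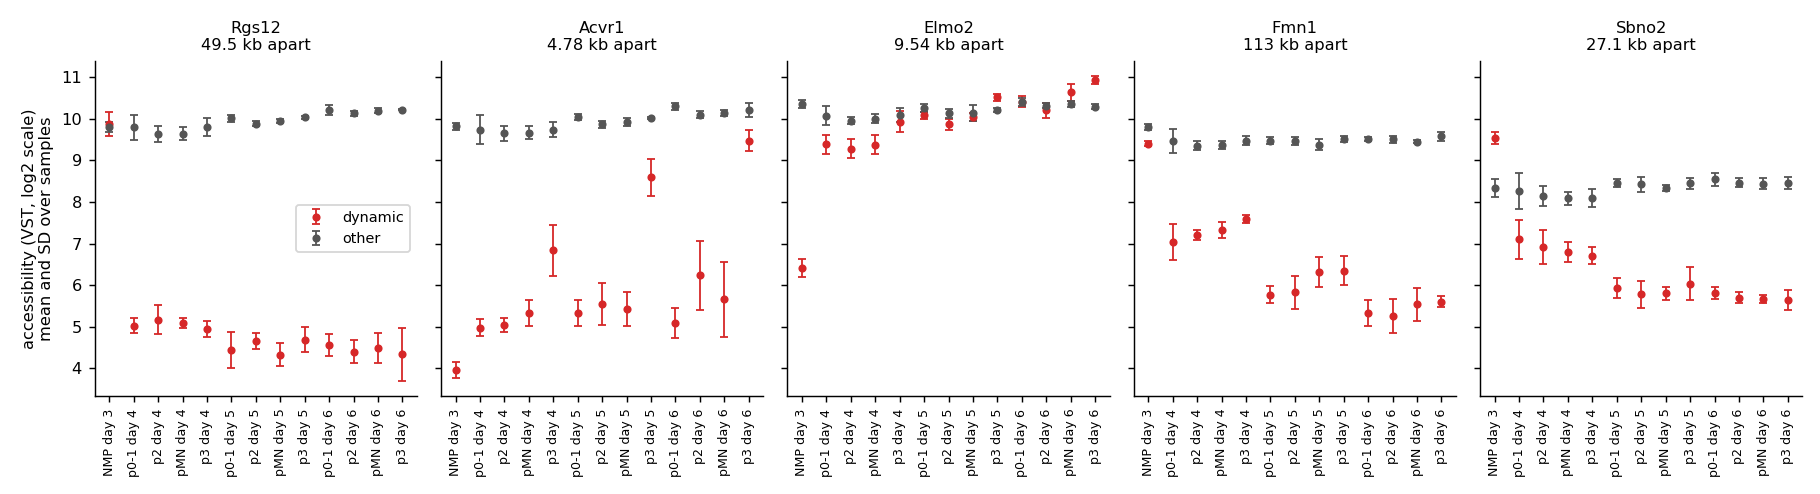
Accessibility (VST, log2 scale) of the dynamic and the other promoter element of 5 genes in the 13 groups, with points at the mean and bars for the SD over samples, and the distance between the elements above each panel. The other elements stay within 0.65 units, whereas the dynamic ones of Rgs12, Fmn1 and Sbno2 are highest in NMPs and those of Acvr1 and Elmo2 in p3.

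Members were compared with the elements assigned to the same gene that were not annotated as promoter-TSS. Of all elements without that annotation, 8.94% covered a TSS. The Pearson correlation over the 13 group means between a promoter element and the mean of those elements had a median of 0.43 over the 1038 members that had any, and 0.16 over all promoter elements. It was above 0.7 in 35.6% of members and below 0 in 35.5%. For Wnt8a, T and Sox6 it was 0.97, 0.93 and 0.92, with 2, 17 and 27 such elements, and for the dynamic element of Acvr1 it was -0.85, with 9. With only those above 100 counts, the median was 0.38 over members, 0.07 in the class highest in NMPs and 0.13 over all promoter elements. The 13 points share libraries and the steps between days, and the correlations are given with no test. The span of the same 13 means chose the members, so members and all promoter elements are not compared on equal terms.

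Short motifs were searched on both strands in the 300 bp around the center of each element. Those given here were picked from 20 strings after their shares were seen, and none of them contains another. The string TGTTTAC, a core of sites of FOXA factors, was in 10 of the 130 members highest in p3 (7.69%) and in 12.9% of the class highest at day 4, against 2.33% of all promoter elements and 3.47% of the CpG-poor ones. The string GTTGCCA, of sites of RFX factors, was in 18 of the 130 members highest in p3 and in 9.76% of the pMN class, against 3.62% of all and 5.13% of CpG-poor promoter elements. In 7 of the 18 it was followed directly by TGG. The stretches around the motif, given because the class highest in p3 held more of both strings than did all promoters, are those of the 5 members with the largest span for each, with the motif in capitals, from the same build. The members with TGTTTAC were these.
Akap14 (chrX:37168841-37168867, plus strand): ctaaagagaaTGTTTACaagtgctgcc
Sox5 (chr6:144210206-144210232, minus strand): agtgacagccTGTTTACaggtttcctt
Mir181b-1 (chr1:137966620-137966646, plus strand): tcagagactaTGTTTACaaaggtcaca
Il1rn (chr2:24344785-24344811, minus strand): caacatgcctTGTTTACaaaacaggaa
Foxp2 (chr6:15184852-15184878, plus strand): aactatgcatTGTTTACtttactgtaa
The members with GTTGCCA were these.
Elmo2 (chr2:165316949-165316975, plus strand): aagggcaaggGTTGCCAggggtgcaag
Gm36908 (chr10:25621595-25621621, minus strand): ggtggcttgtGTTGCCAtggtaattct
Gm15350 (chr8:12832305-12832331, plus strand): aagtctatgaGTTGCCAtggcaactct
C030007H22Rik (chr1:89406297-89406323, minus strand): ttgctaggtgGTTGCCAaggaactgaa
Sox5 (chr6:144210276-144210302, minus strand): ctttgcctggGTTGCCAggacattcag
The Sox5 element, at an SRY-box gene, held both strings. Its mean was 5.47 VST units in NMPs and 8.83 in p3 at day 6, with 8.29 to 8.60 in the other types. At Akap14 it was 4.48 in NMPs and 8.17 in p3 at day 6, with 5.76 to 5.90 in the other types.

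Other strings differed between classes as well. CAGATG, an E-box of helix-loop-helix factors, was in 37.5% of the p2 class, 32.9% of the pMN class and 29.2% of the p3 class, against 10.9% of all and 18.8% of CpG-poor promoter elements. In the p0-1 class it was in 9.43%, in the class highest in NMPs in 16.3% and in the day 4 class in 17.1%. The p2 class has only 32 elements. ACAAAG, of SOX factors, was in 37.7% of the p0-1 class, 35.4% of the p3 class, 31.7% of the pMN class and 25.7% of the day 4 class, against 13.4% and 21.8%. It was in 18.8% of the p2 class and 15.8% of the class highest in NMPs. AGGTGTG, of T-box factors, was in 8.77% of the class highest in NMPs, against 4.09% and 5.82%. GGGCGG, the GC box, was in 33.5% of members and 58.0% of all promoter elements, and CCGGAAG, of ETS factors, in 3.57% and 13.9%. A match says only that the letters are in the window.

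SAG concentration was pooled by the rule, and so it could be tested. Within a cell type, the lower and the higher concentration were compared with limma over all elements with a mean above 100 normalized counts. A call needed a fold above 2 and an adjusted p below 0.01. At day 5 no member was called in any cell type. In p0-1 this was 0 of 405 members tested, 47 of them with an unadjusted p under 0.05, beside 0.00318% of all elements called. In p2 it was 0 of 384 with 63, beside 0%, in pMN 0 of 383 with 11, beside 0%, and in p3 0 of 406 with 3, beside 0%. The share with an unadjusted p under 0.05 was 11.6% of members and 15.1% of all elements in p0-1. It was 16.4% and 11.6% in p2, 2.87% and 2.65% in pMN, and 0.739% and 0.491% in p3. Limma's voom on the recovered reads also called 0 members at day 5 in each cell type.

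Over days 4 to 6 with day in the model, 1 member was called in p2, of 420 tested, beside 0.066% of all elements. This was the promoter of Hoxb5os, a noncoding antisense gene of the Hoxb cluster. It was lower by 1.02 log2 units at 100 nM than at 10 nM SAG, with an adjusted p of 0.00491. At day 4 it had 142, 187 and 217 counts at 10 nM and 98.2, 109 and 135.5 at 100 nM. At day 5 it had 58.9, 115 and 135 counts at 10 nM and 35.2, 45.9 and 50.6 at 100 nM, and at day 6 it had 118, 129 and 286 at 10 nM and 44.2, 55.1 and 58.5 at 100 nM. The samples of the lower concentration were higher without overlap on each day. Leaving out the samples numbered 1 or those numbered 2, or centering each sample on its median, left 0 members called. In p0-1 0 of 439 members were called, 56 with an unadjusted p under 0.05, beside 0.00968% of all elements. There voom called 1, beside 0.171% of all elements. In pMN 0 of 418 were called, 15 with an unadjusted p under 0.05, and in p3 0 of 430, with 10. All elements had 0% called in both, and voom called 0 in both. The share with an unadjusted p under 0.05 was 12.8% of members and 13.5% of all elements in p0-1. It was 24% and 19.6% in p2, 3.59% and 2.95% in pMN, and 2.33% and 2.99% in p3.

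Samples of p0-1, p2 and pMN with the same replicate number varied together, as did those of p3 at day 5, and a fit with this number as a block called more at day 5 in p0-1, p2 and pMN. These blocked fits left only 2 residual degrees of freedom in p0-1 and p2 and 1 in pMN to estimate the variance. An unadjusted p under 0.05 was found for 34.8%, 31.7% and 10.4% of all elements in p0-1, p2 and pMN. In p0-1 at day 5 the blocked fit called 1 member, Fgfbp1, beside 1.01% of all elements. Fgfbp1, which encodes a carrier of fibroblast growth factors, had 299.9, 387 and 524 counts at 0 nM and 163, 169 and 178 at 10 nM SAG, a log2 difference of -1.25 with an adjusted p of 0.000116 in limma. In p2 at day 5 the blocked fit called 6 members, all lower at 100 nM than at 10 nM, beside 1.63% of all elements in either direction and 1.56% lower. The share of members, 6 of 384, was thus close to that of all elements. The 5 with the largest difference were 4930553J12Rik, Gm15941, Eya2, Mir1953 and Gm4791. Gm15941 had 177, 189.9 and 214 counts at 10 nM and 66.2, 67.5 and 68.6 at 100 nM, a log2 difference of -1.52 with an adjusted p of 1.48e-05 in limma. At 4930553J12Rik the values were 56.9, 249 and 298 at 10 nM and 18.4, 67.9 and 92.5 at 100 nM, which overlapped between concentrations although each sample of 100 nM was below that of its own number at 10 nM. Eya2, an EYA family coactivator, differed by -1.22 log2 units, and Mir1953 and Gm4791 by -1.12 each. In pMN at day 5, where only 2 numbers were shared, it called 1 member, Fhit, beside 0.0651% of all elements. Fhit had 24.0, 29.4 and 404.6 counts at 100 nM SAG and 23.3 and 28.9 at 500 nM, so that the call rested on 1 sample, and with the numbers of the descriptions 0 were called. Over days 4 to 6 the blocked fit called 1 member in p2, again Hoxb5os, beside 0.101% of all elements, and 0 in p0-1 and pMN.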

How the data were processed

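The authors ran the nf-core/atacseq pipeline on mm10, with peak calling by MACS, and counted the reads of each sample in a consensus set of elements. The authors deposited values on a log2 scale, from the variance-stabilizing transformation of DESeq2, for 111638 of 133549 elements that HOMER annotated with a gene and a distance to a TSS. The gene named is that of the promoter annotation, and the distance is to the nearest listed TSS. The transformation was inverted, which gave whole reads for 100% of values below 1000 reads (largest distance from a whole number 5.86e-07), and normalized counts were reads divided by size factors. The members and the gene lists were chosen with earlier results of these data known. Named members are the 5 with the largest span in each class, at most 5 in each list, those nearest the threshold, the 5 promoter pairs with the largest difference in span, those called by SAG and the sorting factors. Mir10b, Cxcl15, Akap14, Sox5 and other members shown for a motif or a run of genes, and the second Pax6 and Stra6 elements, were named after their values were seen. The SAG comparisons used R 4.3.3 and limma 3.58.1 on VST values with a variance trend, two-sided, with Benjamini-Hochberg adjustment over all elements above a mean of 100 counts. The fold was that of mean normalized counts at day 5 and of the VST difference over days. No sequence of chromosome 18 is shown. Numbers in the sample titles served as a replicate block. Same-numbered samples varied together, with a lowest correlation of 0.38 in p0-1, 0.451 in p2 and 0.616 in pMN over days 4 to 6, but of 0.0602 in p3. For 15 samples the description gives another number than the title. Features were computed in Python 3.11.15 on GRCm38.p6 with GENCODE gene models. Single-cell, binding and mutant data of the study were not analysed here.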

Additional observations from a re-analysis of the deposited data

Results flagged for a closer look

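The check covered 111 groups of 4 to 6 samples. These were the highest and lowest groups of named members, and each NP group for the median over all members. A sample far from the others by Dixon's criterion was found in 5, and chance gives about 1 in 20 groups. Of these, 4 involved the same sample, p2 at day 6 from 100 nM SAG, replicate 3, which was also the least like its group over all members. At Nhlh1 it had 249 counts and the other 5 samples had between 582 and 764. At A330015K06Rik it had 83.1, with 141 to 179 in the others, and at 4930553J12Rik 68.8, with 179.6 to 266. At Fgfbp1 it was the highest, at 200.1, with 72.0 to 88.3 in the others. In the group of 4 pMN samples of day 6, replicate 3 at 100 nM SAG had 1923 counts at the Tmem219 element, with 1545 to 1560 in the others. The cause of these differences was not tested.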

How the results depend on the processing

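Of 172 values recomputed under an alternative, 143 stayed within 1.5 times or their spread and 29 moved. Many of those that stayed were 0 calls by SAG under both settings, often with fewer samples. The number of members was 467, with 315 highest in NMPs, when a mean above 100 counts was required. It was between 1057 and 1527 under the other alternatives, and at least 96.7% of shared members kept their class. Leaving out samples numbered 1, 2 or 3 gave between 1223 and 1307 members. CpG-poor members were 91.4% over the whole element and 72.3% with a ratio below 0.5. With a replicate block, members called by SAG at day 5 were 1 in p0-1 and 6 in p2, beside 1.01% and 1.63% of all elements. The numbers of the descriptions gave the same. In pMN the block called 1, Fhit, which had 404.6 counts in 1 sample and 23.3 to 29.4 in the other 4, and the description numbers called 0. With the block and samples centered, which was chosen after seeing the data, members called were 1 in p0-1, 7 in p2, 1 in pMN and 1 in p3. Beside these, 0.978%, 1.17%, 0.062% and 0.0834% of all elements were called. Over days 4 to 6, voom, all 67 samples in one fit, and centering each called 1 in p0-1. Of all elements they called 0.171%, 0.339% and 0.0775%. In p2, 8 were called with no minimum fold, beside 0.977% of all elements. With centering 0 were called, beside 0.0597% without the block and 0.0691% with it. Without a replicate number 0 to 1 were called, beside 0% to 0.0727%. The block changed no other call. The causes were not tested. Counts are near 10 or lower for many members at their lowest, where a few reads set the span.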
